A study of Homo sapiens with 7 samples.

Results

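Of 1451 protein-coding genes of chromosome 19 in the RefSeq table, 250 carry symbols made of ZNF and a number, and they are the genes described here. They were taken from the annotation alone, out of 19974 protein-coding genes on chromosomes 1 to 22 and X, and the other 1201 protein-coding genes of chromosome 19 served for comparison. Of these symbols 4 are hyphenated and name read-through or divergent transcripts. ZNF genes encode proteins whose zinc fingers, repeated in tandem, read DNA sequence. Most of those on chromosome 19 also carry a KRAB domain, which recruits TRIM28 and through it the histone methyltransferase SETDB1, and many are known to silence transposable elements. The genes arose by tandem duplication, lie side by side in clusters, and often carry heterochromatin marks over their finger-coding last exons.

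PPARα, a fatty-acid-sensing nuclear receptor, was precipitated from HepG2, a human hepatocellular carcinoma line, and a list of called peaks was given for 6 of 7 samples. All cells received a PPARα expression vector, and 48 h later WY14643, an agonist of PPARα, for 2 h at 10 µM (the labels also write Wy13643). The PPARα group, 2 libraries, had nothing further. The PPARα+ERα group, 2 libraries, also received an estrogen receptor alpha vector and its agonist PPT at 10 nM for 45 min before WY14643, and the PPARα+ERβ group, 2 libraries, an estrogen receptor beta vector and its agonist DPN at 10 nM for 45 min. The receptors were thus overexpressed, no group was left without PPARα vector or agonist, and the no-antibody sample was not analysed here. The labels do not say that libraries came from separate cultures, so p-values measure the spread between these libraries, which may be technical, and library numbers follow accession order only. Both estrogen receptor groups are compared with the same PPARα libraries.

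The lists held 23864 and 36398 peaks with PPARα, 24532 and 27577 under PPARα+ERα, and 17486 and 23352 under PPARα+ERβ. A gene's window is its annotated span plus 3 kb at each end, and a gene was counted in a library when the window held a peak summit. Local background is the fragment level the peak caller set against a summit, given as a multiple of the genome-wide level of that list. The lowest local background worked out for any peak of a list was taken as that genome-wide level. Median stacks at summits in ZNF windows were 30 and 36 fragments under PPARα, 9 and 9.5 under PPARα+ERα, and 21 and 21 under PPARα+ERβ, so the PPARα+ERα sites rest on fewer fragments. How many reads were sequenced is not given in the sources used here.

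The RefSeq promoter windows (GRCh38.p14, 250 bases before to 50 after a start) cover 219 of the 250 genes in 271 windows, and peaks reached 3 of them, which is 1.11% against 1.46% of 22132 windows genome-wide. The 250 upstream bases of those 3 are printed because they are the places where a peak met an annotated ZNF promoter. Each runs 5′ to 3′ on the gene's strand, with the bases lying under every peak that reached the window in capitals. ZNF586 is at chr19:57769426-57769675 on the plus strand, ZNF154 at chr19:57709205-57709454 on the minus strand and ZNF57 at chr19:2900678-2900927 on the plus strand.
ZNF586: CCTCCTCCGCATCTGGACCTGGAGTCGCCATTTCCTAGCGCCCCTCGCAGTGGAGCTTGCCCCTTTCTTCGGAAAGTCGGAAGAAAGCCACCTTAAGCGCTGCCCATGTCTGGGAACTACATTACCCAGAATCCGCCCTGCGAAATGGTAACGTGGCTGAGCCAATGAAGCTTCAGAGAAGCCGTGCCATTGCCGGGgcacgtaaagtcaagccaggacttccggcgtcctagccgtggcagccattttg
ZNF154: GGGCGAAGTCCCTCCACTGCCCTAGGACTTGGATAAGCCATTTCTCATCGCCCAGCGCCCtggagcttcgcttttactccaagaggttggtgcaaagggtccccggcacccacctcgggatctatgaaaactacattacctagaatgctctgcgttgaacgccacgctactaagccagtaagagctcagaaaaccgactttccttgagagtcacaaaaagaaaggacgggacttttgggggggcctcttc
ZNF57: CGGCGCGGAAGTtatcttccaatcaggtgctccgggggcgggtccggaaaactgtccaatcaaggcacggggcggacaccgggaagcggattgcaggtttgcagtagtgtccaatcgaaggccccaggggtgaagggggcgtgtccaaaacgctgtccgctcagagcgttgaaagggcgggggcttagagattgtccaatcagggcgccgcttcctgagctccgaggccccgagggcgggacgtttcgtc

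At ZNF586 the summit lay 237 bases before the start in all 4 libraries of PPARα and PPARα+ERβ, and neither PPARα+ERα list had a peak. The authors' fold there, a ratio of the summit to the background around it, was 5.45 and 5.50 under PPARα and 3.79 and 3.97 under PPARα+ERβ, from 32, 36, 22 and 27 fragments. At ZNF154, whose promoter is known as a site of DNA methylation in many tumours, only the PPARα libraries had a peak, with folds of 3.26 and 4.90 and summits at −406 and −407 bases from the start. At ZNF57 the second PPARα+ERα library reached the window, with a fold of 8.45 at a summit −582 bases from the start. The local background was between 8.45 and 8.66 times the genome-wide level at ZNF586, 23.3 and 22.9 times at ZNF154, and 1.28 times at ZNF57. The nuclear receptor half-site AGGTCA, searched on both strands and also inside longer motifs, was in 12.9% of ZNF promoter windows and in 11.9% of all windows of this length. AGGTCA written 2 times with 1 base between was in 0 of 271 ZNF windows and in 0.0226% of all, and GGTCA and TGACC with 3 bases between in 0 of 271 and in 0.0361%. The 3 windows with a peak held none of these motifs. The median GC content was 60.0% in ZNF windows and 62.3% over all windows.

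Summits were somewhat denser at ZNF genes than at other genes of the chromosome. With PPARα the ZNF windows held 97 and 175 summits, which is 1.16 and 2.10 per 100 kb, against 0.873 and 2.01 at other genes. With PPARα+ERα they held 66 and 76, or 0.790 and 0.910 per 100 kb, against 0.765 and 0.849. With PPARα+ERβ they held 89 and 119, or 1.07 and 1.42 per 100 kb, against 0.775 and 1.25. The density was higher at ZNF genes in 6 of 6 libraries, by 0.21 ± 0.18 on the log2 scale (SD, n = 6; exact two-sided sign-flip permutation test over libraries, p = 0.03125, adjusted over 6 tests p = 0.046875). The unadjusted value is the smallest that 6 libraries can give. The call after adjustment was lost when summits were counted in the span alone (same exact permutation test, adjusted p = 0.094), at −log10 q of at least 3 (0.0625) and with lists of equal length (0.1125). The means there were 0.27, 0.26 and 0.26. In the first 2 settings the unadjusted p of this exact test stayed at 0.03125, and only adjustment with the other measures raised it. With lists of equal length it was 0.094 unadjusted. Restricted to summits whose local background was at most 3 times the genome-wide level, the mean log2 ratio was −0.011 (same exact permutation test, p = 0.9375). The log2 ratio was 0.41 and 0.06 under PPARα, 0.05 and 0.10 under PPARα+ERα and 0.46 and 0.18 under PPARα+ERβ, so the PPARα libraries differed from each other by more than any group means did. The largest difference between groups, PPARα+ERα minus PPARα+ERβ, was −0.25 (exact permutation test, p = 0.333, the smallest that 2 against 2 can give, adjusted p = 0.667). It turned to 0.0056 with lists of equal length and to 0.28 at low background, and PPARα+ERα minus PPARα, −0.16, turned to 0.053 and 0.65.

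More ZNF genes than other genes had a summit, and their spans were longer. The share of ZNF genes with a summit was 30.8% and 43.2% under PPARα, 22.8% and 26.4% under PPARα+ERα, and 29.6% and 34.8% under PPARα+ERβ. Among other genes of chromosome 19 it was 19.4% and 35.4%, 18.0% and 18.0%, and 17.3% and 26.0%, groups as before. The difference was 8.92 ± 2.68 percentage points (SD, n = 6, higher in 6 of 6 libraries; exact sign-flip permutation test, adjusted p = 0.046875). Under the same 3 settings the adjusted p of this exact test was 0.094, 0.0625 and 0.094, while its unadjusted p stayed at 0.03125. ZNF spans had a median of 23.3 kb and those of other genes 12.7 kb. Among the 59 ZNF genes and 697 others with spans under 15 kb, the mean shares over libraries were 18.9% and 11.7%, higher for ZNF genes in 5 of 6 libraries. Among the 109 and 266 genes of 15 to 30 kb the mean shares were 26.6% and 25.8%, and among the 82 and 238 genes of 30 kb and over 46.3% and 49.7%, with ZNF genes higher in 1 of 6 libraries. The differences in the 3 length classes were 7.23, 0.79 and −3.31 points from shortest to longest, and none passed the test (exact sign-flip permutation, adjusted p = 0.075, 0.594 and 0.4875). These length classes were chosen after the data were seen. Restricted to summits at a local background of at most 3 times, the difference over all lengths was 2.92 points (same exact test, adjusted p = 0.141).

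**Figure D1:**
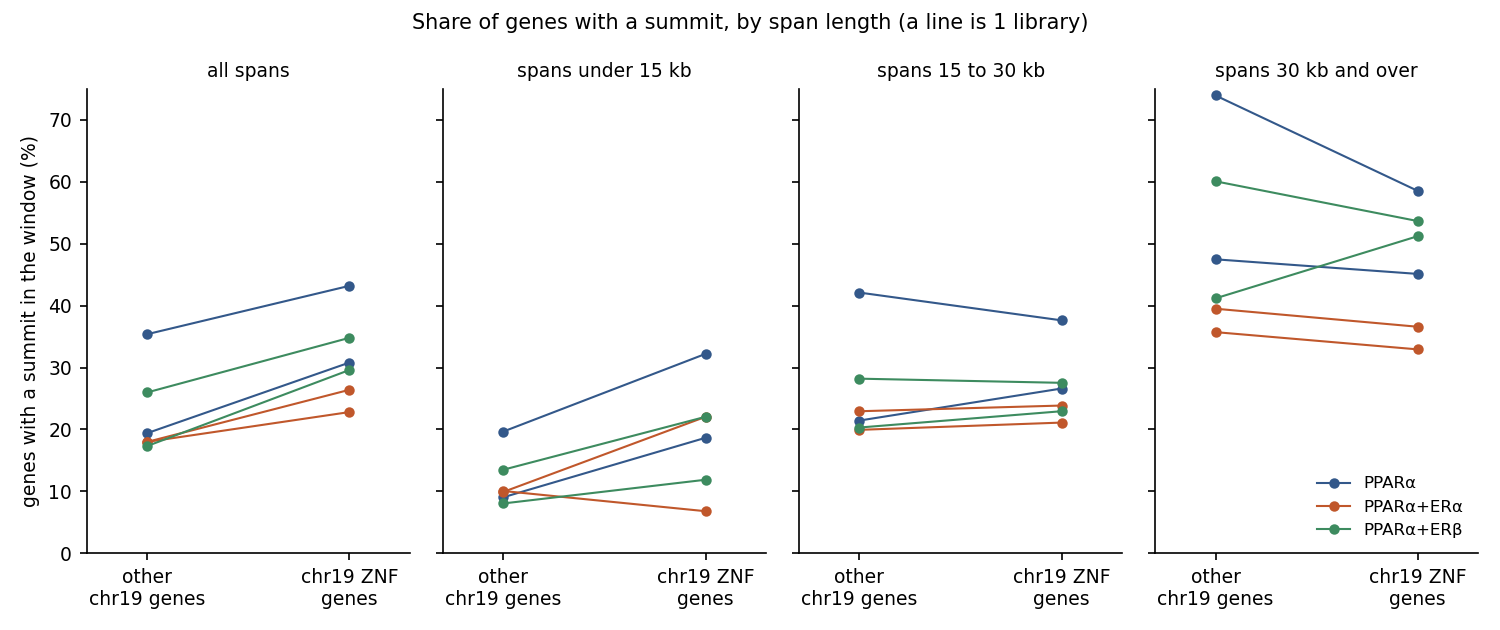
Share of genes with a summit in the window (vertical axis, percent) for other chr19 genes and chr19 ZNF genes, over all spans and in 3 classes of span length. A line joins the values of 1 library, coloured by group: ZNF genes are higher in 6 of 6 libraries over all spans and in 1 of 6 among spans of 30 kb and over.

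Local background was lowest in the PPARα+ERα libraries, over the whole lists as at ZNF genes. The median over all peaks of a list was 13.5 and 15.7 times the genome-wide level under PPARα, 1.64 and 1.57 under PPARα+ERα and 9.34 and 8.52 under PPARα+ERβ, in each library above the median of its ZNF summits. Summits in ZNF windows with a local background over 10 times the genome-wide level made up 49.5% and 53.7% under PPARα and 33.7% and 32.8% under PPARα+ERβ, but 1.52% and 1.32% (1 summit each) under PPARα+ERα. At most 3 times was found for 20.6% and 21.7%, 27.0% and 34.5%, and 78.8% and 82.9% in that order, and the highest single value was 79.7 times, in the second PPARα library. At other genes of the chromosome the share over 10 times was 30% and 45.6% under PPARα, 35.6% and 28.7% under PPARα+ERβ and 7.31% and 6.58% under PPARα+ERα, so the PPARα+ERα libraries were lowest there too. The median background of ZNF summits was 9.82 and 12.1 times under PPARα, against 4.91 and 8.45 at other genes, and 1.47 and 1.45 under PPARα+ERα, against 2.23 and 1.80. Over the 6 libraries the log2 difference between ZNF and other genes was 0.14 ± 0.58 (SD, n = 6; exact sign-flip permutation test, adjusted p = 0.594), smaller than the spread between libraries.

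**Figure D2:**
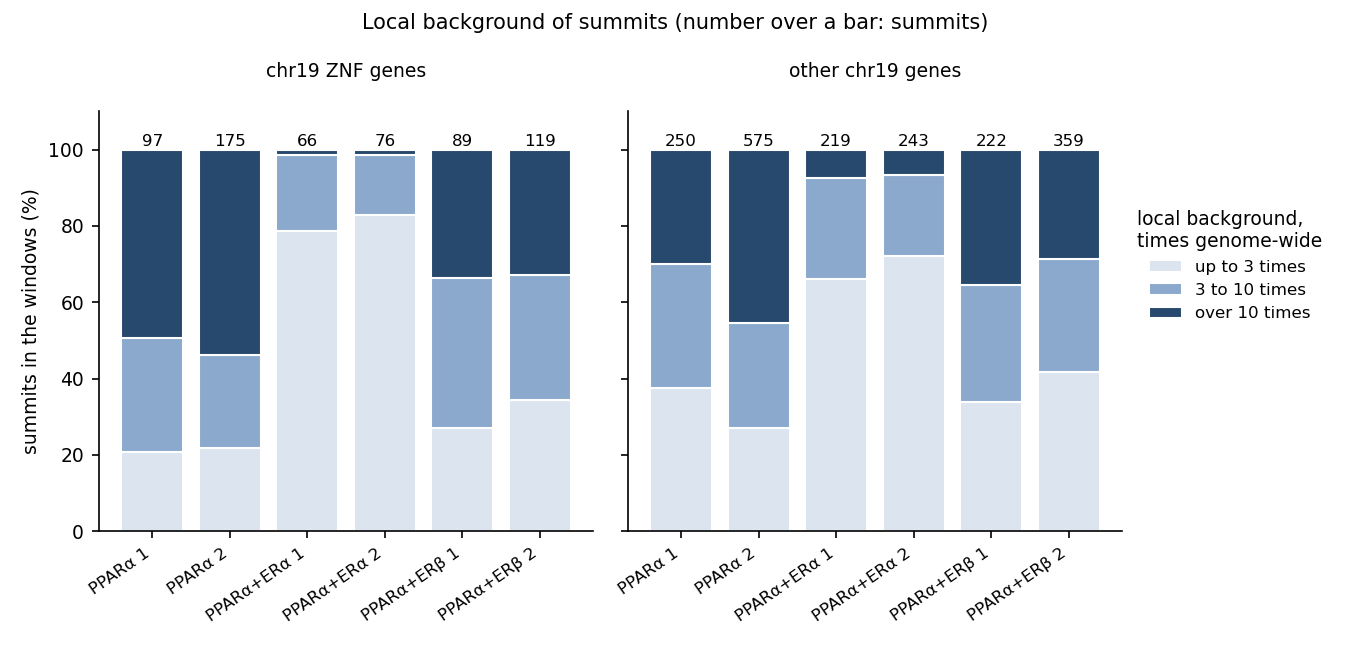
Share of summits (vertical axis, percent) in 3 classes of local background, as a multiple of the genome-wide level, for each library, with the number of summits over each bar. Over 10 times is the darkest class: it holds between 32.8% and 53.7% of ZNF summits in the 4 PPARα and PPARα+ERβ libraries and at most 1.52% in the PPARα+ERα libraries.

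At regions shared by PPARα and PPARα+ERβ libraries the background was mostly alike. Where a PPARα library was paired with a PPARα+ERβ library, between 51 and 80 ZNF regions were shared. The backgrounds differed by no more than 10% in between 75.9% and 85.7% of them. Within PPARα the share was 88.3%, within PPARα+ERβ 78.6% and within PPARα+ERα 77.3% (17 of 22 regions). PPARα+ERα libraries shared only 3 to 8 ZNF regions with each library of the other groups, and the backgrounds differed by no more than 10% in between 33.3% and 62.5% of them. At the 5 regions shared by the first PPARα+ERα and the second PPARα+ERβ library the medians, taken separately, were 1.28 and 6.09 times. Region by region, 3 of those 5 differed by no more than 10%, with a median ratio of 1.05. The 22 ZNF regions shared by both PPARα+ERα libraries had median backgrounds of 1.28 in each. The 21 regions held by both PPARα libraries alone had medians of 17.2 and 18.1 times, whereas the 19 held by both PPARα+ERα libraries alone had 1.28 and 1.28. The part of local background in the group differences was not tested.

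Peaks overlapping by 1 bp or more in any library were merged, which gave 346 regions in ZNF windows, 190 of them from 1 library only. Both PPARα libraries held 77, both PPARα+ERα libraries 22 and both PPARα+ERβ libraries 56. The PPARα and PPARα+ERβ lists met in many of the same places: 36 regions were in all 4 of those lists, and 32 of the 36 had no PPARα+ERα peak. Of the 22 PPARα+ERα regions, 19 (86.4%) had no peak in any other library. Other genes of the chromosome were much alike: 67 regions were in all 4 lists, and 57 of the 67 had no PPARα+ERα peak. Of 68 regions held there by both PPARα+ERα libraries, 55 (80.9%) had no peak in any other library. The Jaccard index, the shared regions as a fraction of all regions of a pair, was 0.395 within PPARα, 0.371 within PPARα+ERβ and 0.183 within PPARα+ERα. It averaged 0.347 between PPARα and PPARα+ERβ, 0.0245 between PPARα and PPARα+ERα, and 0.0405 between PPARα+ERα and PPARα+ERβ. Other genes of the chromosome gave 0.301, 0.266 and 0.173 within the groups, 0.258 between PPARα and PPARα+ERβ, and 0.0240 between PPARα and PPARα+ERα. The mean within groups at ZNF genes, 0.316, was the highest of the 15 ways to pair 6 libraries (exact one-sided permutation test, p = 0.0667, the smallest possible), but the next pairing reached 0.312.

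By gene, both PPARα libraries had a summit at 68 of 250 ZNF genes, which is 27.2%, against 17.1% of other chromosome 19 genes and 29.9% of all protein-coding genes. Both PPARα+ERα libraries had one at 30, or 12%, against 7.91% and 24.6%. Both PPARα+ERβ libraries had one at 55, or 22.0%, against 12.7% and 23.9%. ZNF genes therefore stood above their chromosome and below all protein-coding genes in each group. Among summits with a local background of at most 3 times, 17 ZNF genes were held under PPARα, 25 under PPARα+ERα and 14 under PPARα+ERβ. The order of the groups thus turned, but that filter kept unequal parts of the lists. It kept 20.6% and 21.7% of ZNF summits under PPARα, 78.8% and 82.9% under PPARα+ERα, and 27.0% and 34.5% under PPARα+ERβ. These filtered counts therefore do not rank the groups. The counts also rest on asking for both libraries: the PPARα+ERα count was 66 without its first library and 57 without its second, the PPARα count was 108 without its first, and the PPARα+ERβ count was 87 without its first. No library had a summit at 82 ZNF genes, or 32.8%, against 45.1% and 35.8%, and all 6 libraries had one at 10, or 4.0%, against 1.67% and 11.5%. Of the 638 pairings of a summit with a gene, 622 were distinct summits, since the windows of 100 ZNF genes overlap the window of another.

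Comparing groups gene by gene, 37 ZNF genes had a summit in both PPARα libraries and neither PPARα+ERα library, which is 14.8%, against 8.24% of other chromosome 19 genes and 7.75% of all genes. In the other direction there were 8, or 3.2%, against 2.83% and 5.21%. For PPARα+ERβ and not PPARα there was 1 gene, or 0.4%, against 0.5% and 1.07%, and for PPARα and not PPARα+ERβ there were 7, or 2.8%, against 3.41% and 3.13%. Between the estrogen receptor groups, 26 had a summit under PPARα+ERβ and not PPARα+ERα, or 10.4%, against 5.91% and 5.13%, and 11 the reverse, or 4.4%, against 3.08% and 6.21%. A set of 20 ZNF genes, 8.0% against 3.5% and 3.62%, was held by both PPARα and both PPARα+ERβ libraries and by neither PPARα+ERα library. Both PPARα+ERα libraries and no other held 6 ZNF genes, or 2.4%, against 2.41% and 3.91%, both PPARα libraries and no other 5, or 2.0%, against 2.41% and 1.5%, and both PPARα+ERβ libraries and no other 1, or 0.4%, against 0.416% and 0.411%. Genes held by 1 group alone were thus at or below the background shares, apart from PPARα set against all genes. The shares over all genes also depend on how many genes a group held. Of genes held by both PPARα libraries, 37 of 68 ZNF genes lacked PPARα+ERα, against 99 of 205 other chromosome 19 genes and 1548 of 5975 overall genes. Of genes held by both PPARα+ERβ libraries it was 26 of 55, against 71 of 152 and 1025 of 4781. ZNF genes also had longer spans. These shares carry no test. Among summits with a local background of at most 3 times, 8 ZNF genes were held with PPARα and not PPARα+ERα, and 20 in the other direction. With PPARα+ERβ and not PPARα+ERα there were 5, and 17 in the other direction. Both orders turned, but that filter kept most PPARα+ERα summits and a minority of the others, so these filtered counts do not rank the groups.

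Among the genes that both PPARα and both PPARα+ERβ libraries held without PPARα+ERα, ZNF260 ranked highest in the PPARα lists. It encodes a zinc finger protein without a KRAB domain, known as a transcriptional effector in heart muscle. Its region, chr19:36511652-36512093, lay in the span with the nearest summit 1127 bp from the 3′ end of the gene. The fold was 14.5 and 14.5 under PPARα and 12.2 and 11.3 under PPARα+ERβ, from 42, 46, 35 and 37 fragments, and neither PPARα+ERα list had a summit at the gene. The local background there was 3.34, 3.32, 3.35 and 3.34 times the genome-wide level. By −log10 q it ranked above at least 94.9% of peaks in the PPARα lists and 97.8% in the PPARα+ERβ lists.

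ZNF726 and ZNF790 had the same distribution over libraries. At ZNF726, chr19:23938254-23938626, the fold was 9.53 and 7.62 under PPARα and 7.64 and 6.59 under PPARα+ERβ, at a background of 5.44 to 7.24 times. At ZNF790, chr19:36828463-36829025, it was 9.15 and 13.9 under PPARα and 6.72 and 10.2 under PPARα+ERβ, at a background of 1.09, 1.08, 1.09 and 1.09 times. ZNF790 was named after its values were seen, as a gene of this set whose region lay near the genome-wide background. A region inside the overlapping spans of ZNF132 and ZNF324B, at chr19:58436678-58437058, had folds of 7.88 and 6.26 under PPARα and 5.99 and 5.34 under PPARα+ERβ. ZNF257 had 2 regions in all 4 of these lists, with folds between 2.22 and 7.24.

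ZNF568, whose mouse counterpart is known for silencing a placental transcript of Igf2, and ZNF541, known from meiosis in germ cells, held several sites. ZNF568 had 3 and 4 summits under PPARα, 0 and 0 under PPARα+ERα, and 1 and 2 under PPARα+ERβ. Its strongest shared region, chr19:36920620-36921033, had folds of 4.80 and 6.43 under PPARα and 2.67 and 3.94 under PPARα+ERβ, at backgrounds of 11.0 to 12.4 times. ZNF541 had 3 and 4 summits under PPARα, 0 and 0 under PPARα+ERα, and 1 and 5 under PPARα+ERβ. ZNF544 had 3 in each of the 4 PPARα and PPARα+ERβ libraries and none under PPARα+ERα. These 3 genes were named for their many summits. They belong to the 37 ZNF genes with a summit in both PPARα libraries and neither PPARα+ERα library. That was 14.8% of ZNF genes, against 8.24% of other chromosome 19 genes and 7.75% of all genes. Among genes held by both PPARα libraries it was 37 of 68 ZNF genes and 99 of 205 other chromosome 19 genes.

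Other strong PPARα sites lay at high background. ZNF564, chr19:12537739-12538195, had folds of 4.91 and 7.01 under PPARα and 3.68 and 3.44 under PPARα+ERβ, over backgrounds between 17.3 and 18.4 times. ZNF563, chr19:12314348-12314716, had 4.28 and 4.84 under PPARα and 3.62 in the first PPARα+ERβ library, over 24.1 to 24.7 times. ZNF699, chr19:9298446-9298872, had 5.07 and 6.10 under PPARα and 5.02 in the first PPARα+ERβ library. ZNF331, a gene with imprinted expression, had at chr19:53568246-53568608 folds of 5.16 and 4.05 under PPARα and 4.22 and 2.76 under PPARα+ERβ. ZNF567, chr19:36688058-36688475, had 4.07 and 4.58 under PPARα, and a peak in the second PPARα+ERβ library. Neither PPARα+ERα list had a peak at any of these 5 regions.

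With PPARα+ERα the strongest ZNF site was at ZNF556. Its region, chr19:2867723-2868116, lay in the span, with the nearest summit 571 bp from the 5′ end. The folds were 18.0 and 12.7 from 28 and 20 fragments, and no other list had a peak there. The background was 1.57 times in both libraries, and the site ranked above at least 98.7% of peaks in each list. The gene itself also had a summit elsewhere in the first PPARα library. Upstream of ZNF57, its neighbour in the same cluster, the region whose edge reaches the promoter printed above, chr19:2900300-2900689, had folds of 8.59 and 8.45 under PPARα+ERα from 11 and 12 fragments, and no peak in the other 4 libraries.

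The other named genes with a PPARα+ERα summit and none with PPARα had sites of lower fold than ZNF556. ZNF714, chr19:21119396-21119746, had folds of 5.00 and 5.30 at a background of 2.57 times. ZNF570, chr19:37488314-37488686, had 4.32 and 7.75 from 5 and 10 fragments, with the nearest summit 11 bp from the 3′ end. ZNF419, chr19:57495755-57496070, had 6.48 and 7.75 with the nearest summit 202 bp from the 3′ end. ZNF845, chr19:53348269-53348862, had 5.33 and 9.86 from 7 and 13 fragments. ZNF266 also had a summit in both PPARα+ERα libraries, but at different places, and 1 in the second PPARα+ERβ library. Sites called from 5 to 13 fragments are known with less precision than the ZNF260 site.

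**Figure D3:**
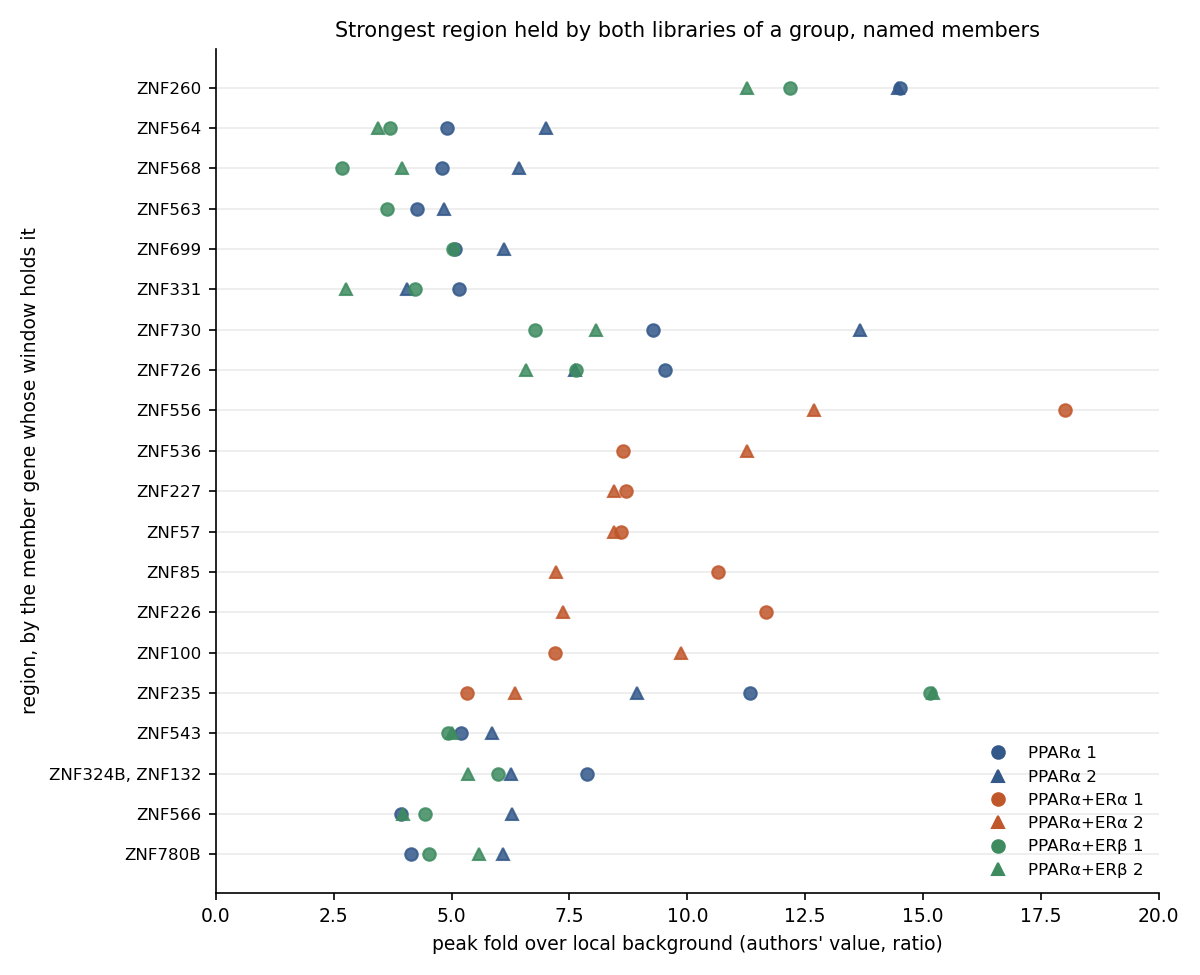
Authors' peak fold (horizontal axis, ratio over local background) of the strongest region that both libraries of a group share, for the named ZNF genes, with a point for each library that has a peak. Folds rank peaks within a list and are not compared between lists: the blue and green points of ZNF260 and the orange points of ZNF556 come from separate places and lists.

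Several genes were held by PPARα+ERα and PPARα at separate places. ZNF226 had a PPARα+ERα region 2129 bp from its 5′ end, chr19:44166920-44167329, with folds of 11.7 and 7.37 at a background of 1.17 times. Its PPARα region, chr19:44168686-44169013, had folds of 2.46 and 2.82 at backgrounds of 24.5 and 24.1 times. ZNF227, next to it, had a PPARα+ERα region upstream of its 5′ end, chr19:44204819-44205185, with 8.69 and 8.45, and a PPARα region inside, chr19:44211426-44211828, with 2.82 and 3.45 at 38.0 and 36.2 times. ZNF85, chr19:20947045-20947503, had 10.7 and 7.22 under PPARα+ERα, while a region 986 bp from its 5′ end, chr19:20924087-20924513, had 4.75 and 6.76 under PPARα and 5.09 in the second PPARα+ERβ library. ZNF100 had 7.19 and 9.86 under PPARα+ERα at chr19:21728130-21728534 and, at chr19:21743860-21744247, 6.08 and 2.95 under PPARα and 5.41 and 5.45 under PPARα+ERβ. A gene counted in both groups was therefore not always the same site. ZNF429 had a summit in both PPARα+ERα libraries at no shared place.

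The 1 and 7 ZNF genes that differed between PPARα+ERβ and PPARα were near the background shares given above, and their order was not stable. With lists of equal length 11 genes had summits under PPARα+ERβ and none under PPARα, and 3 the reverse. Leaving out 1 library moved the first count to between 5 and 11 and the second to between 11 and 24 for the libraries of these groups. ZNF234 was the single gene with PPARα+ERβ summits and none with PPARα, at chr19:44146476-44146821, with folds of 6.05 and 7.03 from 10 and 13 fragments. The 7 genes with PPARα summits and none under PPARα+ERβ included ZNF226 and ZNF227, described above, ZNF154 with the promoter site, and ZNF580. At ZNF585B, chr19:37180936-37181273, the folds with PPARα were 3.22 and 3.44 at 22.1 and 21.7 times. At ZNF180, chr19:44501781-44502173, they were 3.16 and 3.27, and at ZNF766, chr19:52288806-52289168, 4.58 and 4.18. ZNF780B, chr19:40049060-40049497, and ZNF543, chr19:57330580-57330928, were held by both groups, with folds between 4.14 and 6.10 at the first and between 4.93 and 5.86 at the second.

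A single ZNF region carried a peak in all 6 libraries. It lay at ZNF235, chr19:44300844-44301485, within the span and with its nearest summit 3977 bp from the 5′ end. Its folds were 11.3 and 8.94 under PPARα, 5.33 and 6.34 under PPARα+ERα, and 15.1 and 15.2 under PPARα+ERβ, from 17, 14, 7, 8, 23 and 25 fragments. The background was at the genome-wide level in 5 of the libraries and 1.28 times in the first PPARα+ERα library. Peaks of 5 libraries met at ZNF253, ZNF875, ZNF614 and ZNF274. ZNF274, which is known to bring SETDB1 to the 3′ ends of other zinc finger genes, had at chr19:58193095-58193460 folds of 5.23 and 4.40 under PPARα, 3.90 in the second PPARα+ERα library, and 3.48 and 3.22 under PPARα+ERβ, all from 5 to 8 fragments. ZNF253, chr19:19866076-19866516, had folds between 2.70 and 4.67 over backgrounds of 18.1 to 19.3 times.

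Another 9 genes had a summit in all 6 libraries, with no region common to all of them. ZNF91, known to silence SVA and LINE-1 retrotransposons, had 2 and 2 summits under PPARα, 2 and 1 under PPARα+ERα, and 1 and 1 under PPARα+ERβ over a long span. Its region shared by PPARα and PPARα+ERβ, chr19:23381047-23381477, had folds of 5.16 and 3.94, and 3.46 and 2.72, and its PPARα+ERα region, chr19:23374565-23375177, had 4.66 and 5.85. ZNF730 likewise had one region with folds of 9.28 and 13.7 under PPARα and 6.76 and 8.07 under PPARα+ERβ, chr19:23123579-23123922, and another with 9.22 and 5.78 under PPARα+ERα, chr19:23085016-23085511. ZNF66, ZNF566 and ZNF221 followed the same form in that their PPARα and PPARα+ERβ regions had no PPARα+ERα peak. ZNF536, a gene known from neuronal differentiation that stands alone, had the most summits, 3 and 9, 3 and 2, and 4 and 3, in the longest ZNF span, 488 kb. ZNF136, named for its number of summits and without one in the first PPARα library, had 0 and 2, 1 and 2, and 3 and 2.

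Summits near an annotated gene end were a smaller part of ZNF summits than of summits at other genes, at either end taken singly, but per 100 kb the ZNF 5′ zones held more summits than those of other genes. Within 3 kb of the 5′ end lay 15.2% and 15.4% of ZNF summits under PPARα, 25.8% and 22.2% under PPARα+ERα, and 13.3% and 15.9% under PPARα+ERβ. The difference from other genes was −6.40 ± 1.99 percentage points (SD, n = 6, lower in 6 of 6 libraries; exact sign-flip permutation test, adjusted p = 0.046875), and for the 3′ end −4.50 ± 3.30 points (SD, n = 6, lower in 6 of 6; same exact test, adjusted p = 0.046875). Taking both ends together the difference was −4.20 points (adjusted p = 0.075, same exact test). With longer spans the ends make up less of the window, so densities were also taken. Per 100 kb, the 5′ zones of ZNF genes held 1.54 ± 0.62 summits under PPARα, 1.27 in each library under PPARα+ERα and 1.11 ± 0.34 under PPARα+ERβ (SD, n = 2 each). Gene interiors held 1.80 ± 0.67, 0.772 ± 0.084 and 1.35 ± 0.28, groups as before. With PPARα+ERα the 5′ zones were thus denser than the interiors in both libraries, and with the other groups less dense in all 4. At other genes of chromosome 19 the 5′ zones held 1.34 ± 0.62, 1.16 ± 0.014 and 1.04 ± 0.28, below the ZNF 5′ zones in 6 of 6 libraries. Their interiors held 0.708 under PPARα+ERα, and under PPARα the interiors were denser than the 5′ zones in both libraries. The 3′ zones held 1.37 ± 0.65, 0.997 ± 0.23 and 1.08 ± 0.12 at ZNF genes and 1.28 ± 0.88, 0.724 ± 0.056 and 1.03 ± 0.41 at other genes, and ZNF genes were higher in 4 of 6 libraries. These densities carry no test. Both calls on the shares were lost with the span alone, at the stricter q threshold, with lists of equal length and at low background.

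The 250 genes fell into 20 clusters when a gap of more than 500 kb ended a cluster, and 10 clusters of 5 or more genes held 236 of them. The largest by length, ZNF101 to ZNF254 (37 genes, chr19:19668153-24129968), had 27 and 39 summits under PPARα, 18 and 25 under PPARα+ERα, and 27 and 26 under PPARα+ERβ. That was 1.90 ± 0.49, 1.24 ± 0.28 and 1.52 ± 0.04 per 100 kb (SD, n = 2 each), and 4 of its genes had no summit in any library. The telomeric cluster ZNF264 to ZNF446 (43 genes, chr19:57191500-58489533) had 14 and 23, 3 and 7, and 14 and 14, and 19 of its genes had none. Its windows cover 890 kb, against 1738 kb for ZNF101 to ZNF254. Per 100 kb it held 2.08 ± 0.71, 0.56 ± 0.32 and 1.57 in each library (SD, n = 2 each). With PPARα and PPARα+ERβ it was thus no sparser than ZNF101 to ZNF254. The cluster ZNF175 to ZNF331 (41 genes, chr19:51571283-53580269) had 12 and 24, 7 and 4, and 6 and 18, or 1.28, 0.39 and 0.85 per 100 kb on average. The cluster ZNF653 to ZNF791 (25 genes) had 8 and 19, 6 and 7, and 10 and 12, or 1.89, 0.91 and 1.54 per 100 kb on average. In ZNF101 to ZNF254, ZNF264 to ZNF446 and ZNF653 to ZNF791 both PPARα+ERα libraries lay below all 4 others. In ZNF175 to ZNF331 the second of them did, and in no further cluster of 5 or more genes did both.

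The cluster ZNF575 to ZNF180 (23 genes, chr19:43530835-44500522) had another order. It held 6 and 12 summits under PPARα, 9 and 11 under PPARα+ERα, and 4 and 5 under PPARα+ERβ, so that PPARα+ERα overlapped PPARα and lay above PPARα+ERβ. Its members include ZNF226, ZNF227 and ZNF235. The cluster ZNF302 to ZNF792 (5 genes, chr19:34675979-34964229) had a single summit over all libraries, in ZNF302 under PPARα+ERα. ZNF554 to ZNF77 (5 genes), the small cluster that holds ZNF556 and ZNF57, had 2 and 3, 2 and 3, and 3 and 6 summits in 110 kb of windows. To compare places within these clusters, the gene order of each was split in 3 equal parts. Averaged over libraries, 30.3% of genes in the middle part and 31.7% of those in the outer parts held a summit, and the middle part was higher in 3 of 6 libraries. Of the 20 genes at the ends of the 10 clusters, 5 had no summit, namely ZNF414, ZNF792, ZNF175, ZNF628 and ZNF264. A summit in 4 or more libraries was found at 4 of the 20, namely ZNF77, ZNF653, ZNF573 and ZNF331. Over all ZNF genes described here, 32.8% had no summit, and 12.4%, 7.2% and 4% had one in 4, 5 and 6 libraries. The counts at cluster ends were not tested against these shares.

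**Figure D4:**
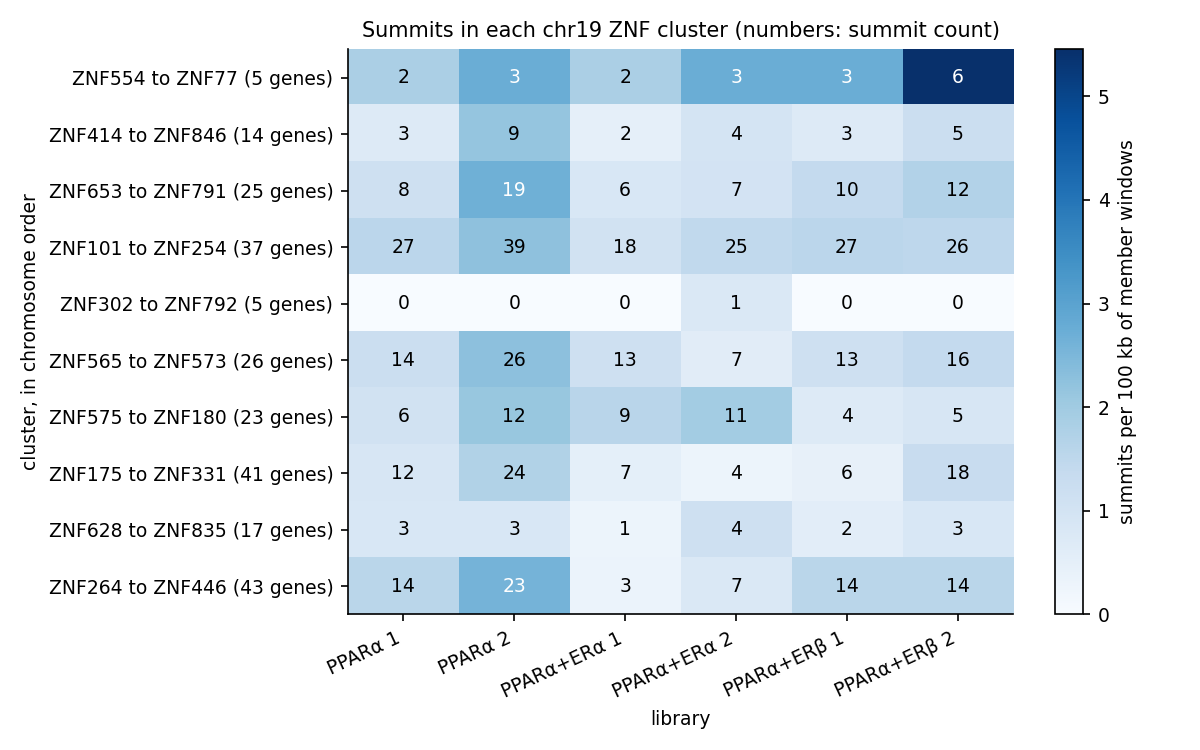
Summits per 100 kb of member windows (shade) in the 10 clusters of 5 or more ZNF genes (rows, in chromosome order) for the 6 libraries (columns), with summit counts as numbers. The second PPARα list, the longest, is darkest in most rows, ZNF302 to ZNF792 holds 1 summit in all, and ZNF575 to ZNF180 has 9 and 11 summits under PPARα+ERα.

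Among 22 further genes of C2H2 zinc finger proteins on chromosome 19 whose symbols do not begin with ZNF, both libraries held a summit at 5 under PPARα, 3 under PPARα+ERα and 7 under PPARα+ERβ, and 9 had none, where other chromosome 19 genes gave 17.1%, 7.91%, 12.7% and 45.1%. ZBTB7A, ZFP82, ZIM2 and ZSCAN5A had one in 5 libraries, as did 5.33% of other chromosome 19 genes. Of 20 genes of the KRAB corepressor pathway, on several chromosomes, both libraries held a summit at 6, 8 and 6 in the same order, and 3 had none, where all protein-coding genes gave 29.9%, 24.6%, 23.9% and 35.8%. Lists this short are given as counts only. ATF7IP, the partner of SETDB1, PPHLN1, a subunit of the HUSH complex, and TRIM33, a relative of TRIM28, had a summit in all 6 libraries, and MORC3 in 5. That is 3 of the 20 in all 6 libraries, where all protein-coding genes gave 11.5%. TRIM28 had 1 summit, in the second PPARα library, and SETDB1 and CBX3 had none. The 267 ZNF genes on other chromosomes were held in both libraries at 27.7%, 24.0% and 23.2%, so that PPARα+ERα was the lowest of the groups at ZNF genes of chromosome 19, as at its other genes, and not at those elsewhere.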

How the data were processed

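Peak lists of PPARα chromatin immunoprecipitation in HepG2 cells were used, 1 for each of 6 libraries in 3 groups. Per the submitters' processing notes, tools included MACS2 2.2.7.1 and Bowtie 1.0.1, and the build was hg38. The control used in peak calling is not given in the sources used here. The authors called peaks for each library separately, and their score is the −log10 q rescaled without decimals. As deposited, fold is a ratio of a summit over its local background. The deposited −log10 p and −log10 q belong to the summit.

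The fragment number and local background of each summit were worked out from fold and −log10 p, taken as a Poisson tail, and for 100% of peaks some whole fragment number matched the deposited −log10 p to 0.001. Positions count from 1. Spans are RefSeq GRCh38.p14, and strand, known for 219 ZNF genes, comes from its promoter table. No genome sequence of the build was used, so peaks outside promoter windows carry no sequence, and exons and protein features were not analysed here. Summits in windows of both a ZNF gene and another gene count with the ZNF gene. Peaks on other contigs (294) were left out.

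Library values were compared by exact sign-flip permutation tests, groups by exact permutation tests, with Benjamini-Hochberg adjustment over 6 or 3 tests at 0.05. Fragment recovery, the calls of differing genes, the sign-flip test, interval arithmetic and pairings were checked on simulated or worked cases. Genes planted as differing met the call by construction, so that check covers the code only. Density, share, zone, region overlap and cluster measures were not simulated. Genes were named by rank: up to 8 per group and 8 in all libraries by the lower of their within-list percentiles of −log10 q, up to 6 per difference, the 5 with most summits, and the ends of clusters. ZNF586, ZNF274, ZNF875, ZNF614, ZNF790 and ZNF580 were chosen after their values were seen. Members, lists and tests were chosen with earlier results of these data known. Alternatives changed the window, the q threshold, list length, local background, the libraries used, the comparison genes and the cluster gap. Python 3.11.15 was used with SciPy 1.17.1, NumPy 2.4.6, Matplotlib 3.10.9 and pandas 2.3.3.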

Additional observations from a re-analysis of the deposited data

Results flagged for a closer look

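In 3 measures every library of one group lay on one side of 0 and every library of another on the other side. With 2 libraries against 2 the exact permutation test gave p = 0.333 for each, the smallest it can give, so none of these differences is resolved from the spread between libraries.

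The local background of ZNF summits, over that of summits at other chromosome 19 genes, was 0.76 on the log2 scale with PPARα (1.00 and 0.51) and −0.46 with PPARα+ERα (−0.60 and −0.31).

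Summit density at the chromosome 19 ZNF genes, over that at ZNF genes of other chromosomes, was 0.41 on the log2 scale with PPARα (0.29 and 0.53), 0.51 with PPARα+ERβ (0.49 and 0.54) and −0.30 with PPARα+ERα (−0.37 and −0.23). Other genes of chromosome 19, set against the same ZNF genes elsewhere, gave −0.12 and 0.47, 0.03 and 0.36, and −0.41 and −0.33, groups as before, so both PPARα+ERα libraries were low there too.

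Summit density in the 5′ zones of ZNF genes, over that in their interiors, was 0.72 on the log2 scale with PPARα+ERα (0.83 and 0.61), −0.23 with PPARα (−0.26 and −0.20) and −0.30 with PPARα+ERβ (−0.40 and −0.20). At other chromosome 19 genes it was 0.90 and 0.55 with PPARα+ERα.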

How the results depend on the processing

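The higher density and share of summits at ZNF genes kept their direction under wider, narrower and exclusive windows, a stricter threshold and lists of equal length, but their adjusted p rose above 0.05 under 3 of these 5. The means were 0.27 and 9.01 with the span alone, 0.26 and 8.69 at −log10 q of at least 3, and 0.26 and 6.62 with lists of equal length. The 5′ and 3′ differences were −2.68 and −3.24, −7.14 and −5.33, and −10.5 and −6.40 under these settings, all no longer past the threshold. With windows of 10 kb the difference for both ends together was −4.30 and passed it. At a local background of at most 3 times, density was −0.011 (reversed), share 2.92, the background difference −0.10 (reversed), and the ends −7.19 and −7.08. Against ZNF genes elsewhere the density ratio was 0.21, not past the threshold. By span length the share difference was 7.23, 0.79 and −3.31, the last reversed. The cause was not tested.

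Group differences in density reversed with lists of equal length (PPARα+ERα minus PPARα 0.053, minus PPARα+ERβ 0.0056) and at low background (0.65 and 0.28).

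Genes held in both libraries numbered 35 with PPARα and 19 with PPARα+ERα at equal length, and 55 with PPARα+ERα in 10 kb windows. At low background 17 were held under PPARα, 25 under PPARα+ERα and 14 under PPARα+ERβ. The order of the groups turned there, under a filter that kept most PPARα+ERα summits and a minority of the others. Genes with a summit in either library numbered 117, 93 and 106. PPARα+ERα and not PPARα gave 5 with the span alone, 17 with 10 kb and 20 at low background. The reverse gave 23 at equal length and 8 at low background. PPARα+ERβ and not PPARα gave 2 with the span alone, 2 at the stricter threshold, 11 at equal length and 3 at low background, and the reverse 3, 11 with 10 kb, 3 at equal length and 0. PPARα+ERα and not PPARα+ERβ gave 22 with 10 kb and 17 at low background, and the reverse 5 at low background.

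Leaving out each library in turn, 5 libraries cannot give p below 0.0625, so no test could pass. The ranges were 0.16 to 0.24 for density, 8.25 to 9.75 for share, −0.028 to 0.29 for background (reversed without the first PPARα library), −5.49 to −3.67 for either end, −6.97 to −5.80 for the 5′ end and −5.24 to −3.33 for the 3′ end. Group differences ran from −0.34 to 0.01 (PPARα+ERα minus PPARα, reversed without the first PPARα library at 0.013), −0.09 to 0.26 (PPARα+ERβ minus PPARα, reversed at −0.090 without the second PPARα and −0.05 without the first PPARα+ERβ library) and −0.38 to −0.11. With 1 library left in a group, that library alone decides its calls: genes held ran from 68 to 108, 30 to 66 and 55 to 87, and differing genes from 8 to 26, 37 to 63, 1 to 11, 7 to 24, 11 to 28 and 26 to 48, in the order of the report. The Jaccard index within groups ran from 0.277 to 0.383.

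No paired analysis was possible because the labels give no replicate numbers that groups share. Sites with PPARα+ERα rest on about 9 fragments.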
